A study of Mus musculus with 6 samples.

Results

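The CC chemokine ligands Ccl2, Ccl3, Ccl4, Ccl6, Ccl7, Ccl8, Ccl9, Ccl11, Ccl12 and Ccl24 were examined in macrophages of mouse epididymal fat. These 10 genes were chosen by name from the family, and each was found on the array, where 33786 gene symbols were represented. Each had 1 transcript cluster, the probe set that stands for a gene, and each of those rows carried a single distinct symbol. The cells came from male C57BL/6J mice, all 22 weeks old, that had been kept from 6 weeks of age for 16 weeks on normal chow (NCD) or on a diet with 60% fat (HFD). They were taken from the stromal vascular fraction after collagenase digestion and selected with magnetic beads through an antibody (clone BM8) to the macrophage surface antigen encoded by Adgre1. Each diet had 3 pools, written NCD1 to NCD3 and HFD1 to HFD3, with 20 mice in each NCD pool and 10 in each HFD pool, and 1 Affymetrix array per pool. Replicates here are pools, and mouse-to-mouse variation lies within them. Values listed in sentences follow the pool order 1, 2, 3 within each diet.

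CC chemokines are small secreted proteins that draw leukocytes through G protein-coupled receptors, and many ligands share receptors. Ccl2, Ccl7 and Ccl12 act on Ccr2, through which monocytes leave the bone marrow and enter inflamed tissue, including obese fat. Ccl3, a ligand of Ccr1, and the related Ccl4 are induced quickly in stimulated macrophages. Ccl6 and Ccl9 act on Ccr1, mouse Ccl8 acts on Ccr8, and the eotaxins Ccl11 and Ccl24 act on Ccr3, the main chemokine receptor of eosinophils. Ccl24 is a gene of alternatively activated macrophages, and Ccl11 is made largely by stromal cells.

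In the RefSeq annotation of GRCm38.p6, Ccl2, Ccl7, Ccl11, Ccl12 and Ccl8 followed one another on chromosome 11 with 1 other annotated gene among them, which was not protein-coding. Ccl9, Ccl6, Ccl3 and Ccl4 formed another group on the same chromosome, and 27 protein-coding genes lay between the groups. The annotated spans of Ccl3 and Ccl4 overlapped there. Ccl24 was on chromosome 5, next to the eotaxin gene Ccl26. The RefSeq promoter table held 5 of the 10 genes, Ccl3, Ccl6, Ccl8, Ccl9 and Ccl12. The 250 bases before the start of Ccl12, which fell with the diet, and of its neighbour Ccl8 and of Ccl9, which were not called, are shown from 5′ to 3′ on the gene's strand, and capitals mark motif matches.
Ccl12, chr11:82101595-82101844, + strand: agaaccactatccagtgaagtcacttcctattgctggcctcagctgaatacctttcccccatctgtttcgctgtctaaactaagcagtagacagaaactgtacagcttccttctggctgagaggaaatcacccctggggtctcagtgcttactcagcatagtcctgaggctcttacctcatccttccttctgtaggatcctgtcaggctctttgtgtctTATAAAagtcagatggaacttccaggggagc
Ccl8, chr11:82114935-82115184, + strand: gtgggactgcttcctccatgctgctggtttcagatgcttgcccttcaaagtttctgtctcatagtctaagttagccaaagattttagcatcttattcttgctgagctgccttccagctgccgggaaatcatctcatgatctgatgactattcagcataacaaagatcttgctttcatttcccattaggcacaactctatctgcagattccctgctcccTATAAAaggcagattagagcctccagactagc
Ccl9, chr11:83578637-83578886, - strand: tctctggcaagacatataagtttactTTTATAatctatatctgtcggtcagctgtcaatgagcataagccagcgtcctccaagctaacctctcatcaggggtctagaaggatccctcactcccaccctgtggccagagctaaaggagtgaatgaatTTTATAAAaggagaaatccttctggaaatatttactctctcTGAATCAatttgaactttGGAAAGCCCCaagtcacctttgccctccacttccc
The motifs searched on both strands were the TATA box (TATAAA), AP-1 (TGANTCA), STAT sites (TTC and GAA set 3 or 4 bases apart), and the NF-kappaB consensus. In Ccl12 and in Ccl8 the only match was a TATA box, from 31 and 32 bases before the start respectively. Ccl9 held TATA boxes on both strands, of which a pair overlapped at 94 to 87 bases before the start. It also held an AP-1 match, which reads alike on both strands, and an NF-kappaB match on the opposite strand at 35 to 26 bases before the start. Ccl3 and Ccl6 had 0 matches in this window. Of 32851 promoters of the same length, 12.4% held the TATA box, 6.75% AP-1, 7.02% and 5.85% the STAT sites with the shorter and the longer spacer, and 7.25% the NF-kappaB consensus. Ccl12 and Ccl8 were identical at 147 of 230 aligned bases (63.9%), against 50.9% to 59.3% for the other 9 pairs of these promoters.

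The arrays gave a log2 expression value for each transcript cluster. All 10 ligands lay above the background level of 6.23, set by the antigenomic control probes, in every pool. The labelled cell type had its defining genes: Adgre1 ran from 15.05 to 16.08 in NCD and from 16.54 to 16.70 in HFD pools, and of 13 measured macrophage identity genes 2 were called higher, 1 lower and 10 not called. Genes of other cells were high too. The smooth muscle gene Acta2 was at 14.68, 15.39 and 16.26 in NCD and 12.21, 10.17 and 9.97 in HFD pools. The endothelial gene Pecam1 was at 13.57, 14.98 and 15.54 in NCD and 13.89, 12.50 and 12.40 in HFD pools. Column medians over all rows ran from 5.95 to 6.03. Precision is limited by the small number of arrays. Of 31722 rows tested with limma, 2451 passed an adjusted p of 0.05, 4.9% of all rows as higher in HFD and 2.83% as lower, and the median change was 0.01. HFD minus NCD changes are given on the log2 scale with the moderated standard error, and a gene is called where its limma p, adjusted by Benjamini-Hochberg over all rows, was below 0.05.

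Ccl24 and Ccl12 fell with the high-fat diet, 0 of the 10 ligands rose (4.9% of all rows), and 8 were not called. Ccl24 was 17.2-fold lower and Ccl12 3.65-fold lower. Thus 2 of 10 ligands were called, both lower, where 7.73% of all rows were called in either direction and 2.83% as lower. In a fit of the 16649 rows above background, where all 10 ligands lie, 18.2% were called in either direction and 6.4% as lower, so that 2 of 10 is close to the share called there in either direction. In 5 ligands, Ccl7, Ccl8, Ccl11, Ccl12 and Ccl24, every HFD pool was below every NCD pool, as in 12.8% of all rows and 17.4% of those above background. In 0 ligands was every HFD pool above (17.5% of all rows and 26.3% of those above background). The median change of the ligands was −0.65, against 0.01 over all rows. In bulk RNA, fewer cells that make a transcript and less transcript per cell cannot be told apart.

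**Figure D1:**
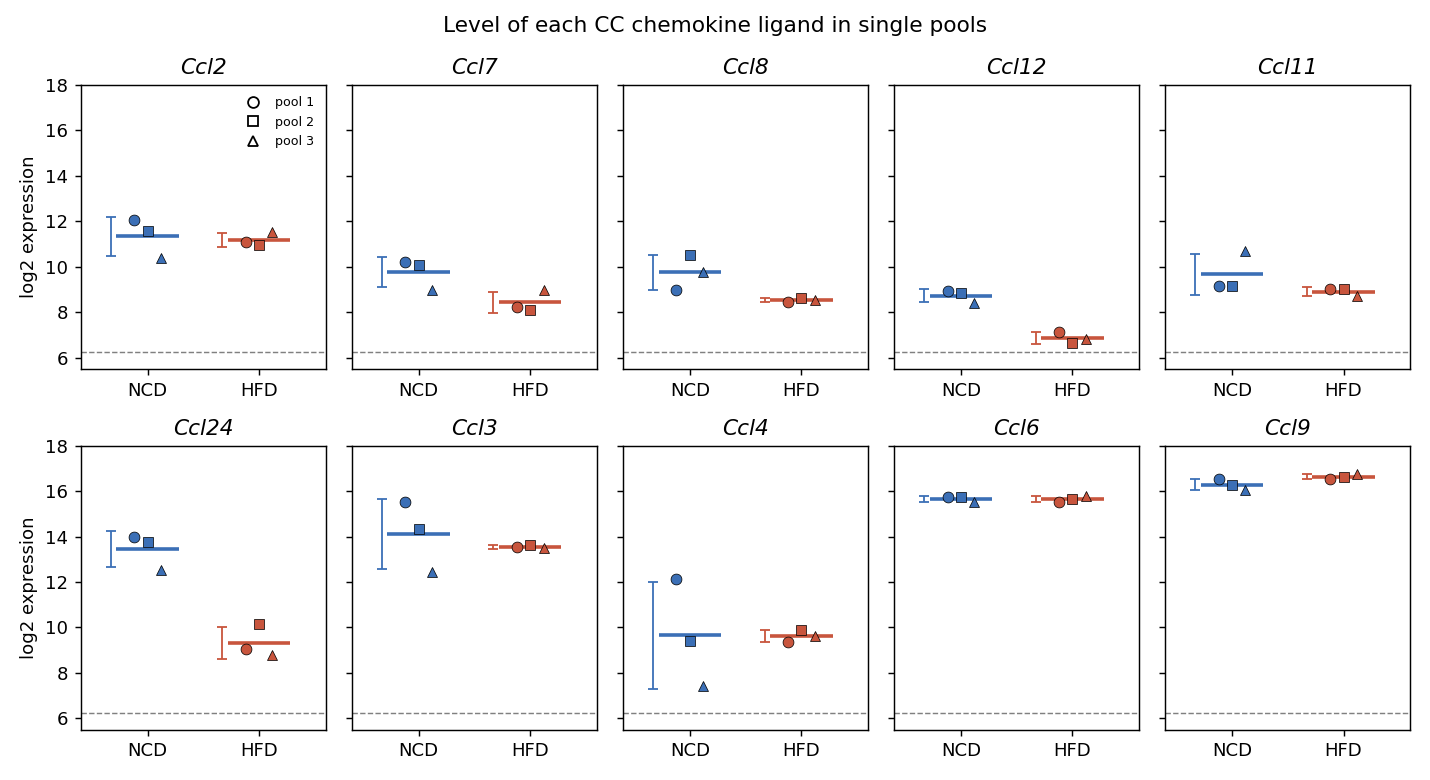
Log2 expression of the 10 ligands in each pool, NCD in blue and HFD in red, with the mean as a horizontal line, the SD over 3 pools as a bar beside it, and the background level of 6.23 as a dashed line. Ccl24 and Ccl12 are separated by diet, while Ccl3 and Ccl4 are spread widely over the NCD pools and closely placed in HFD.

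**Figure D2:**
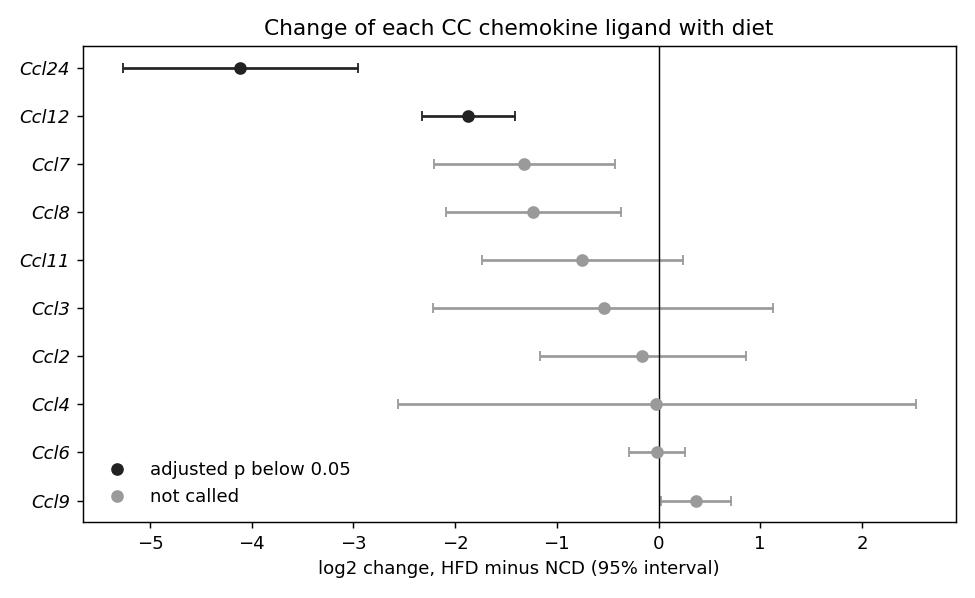
Log2 change, HFD minus NCD, of each ligand with its 95% interval from limma over 3 pools a diet, in black where the adjusted p was below 0.05. The 2 called genes lie farthest to the left, the interval of Ccl4 runs from −2.56 to 2.53, and that of Ccl6 from −0.29 to 0.26.

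Of the eotaxins Ccl24 was called and Ccl11 was not. Ccl24 had log2 values of 13.99, 13.78 and 12.53 in NCD pools, against 9.06, 10.13 and 8.79 in HFD pools. The lowest NCD pool was 2.40 above the highest HFD pool. The change was −4.11 ± 0.49 (limma, adjusted p = 0.00874, n = 3 pools a diet), with a 95% interval from 7.70-fold to 38.5-fold lower. The call held in each of the 17 alternatives, at −4.56 to −3.83 and an adjusted p up to 0.0494, the highest being without NCD2.

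Ccl11 was at 9.16, 9.13 and 10.68 in NCD pools, against 9.0, 9.02 and 8.69 in HFD pools. The groups were only 0.106 apart, and NCD3 stood above the other 5 pools. The change of −0.75 ± 0.42 was not called (limma, adjusted p = 0.335), its interval ran from −1.74 to 0.24, and without NCD3 it was −0.24. Their receptor gene Ccr3 rose 2.19-fold (1.13 ± 0.20, limma adjusted p = 0.0238), from 6.27, 6.43 and 5.71 in NCD to 7.31, 7.42 and 7.07 in HFD pools. The NCD mean of Ccr3, 6.14, was below the background level, where array signals are compressed. Its call was lost without NCD2 (limma adjusted p = 0.0554), HFD1 (0.0722), HFD2 (0.101) or HFD3 (0.0745). In these fits 472, 1072, 408 and 447 rows were called in all, in that order, against 2451 in the main fit. The change of Ccr3 without 1 pool stayed at 0.92 to 1.28. The eosinophil peroxidase gene Epx lay below background in every pool, at 4.28 to 4.36, and Siglecf, a lectin of eosinophils, was at 6.78 to 7.35 in NCD and 6.74 to 7.08 in HFD pools. The summed eosinophil list was at 15.26 to 16.87 in NCD and 15.04 to 15.87 in HFD pools. Of its 7 measured genes only Ccr3 itself was called, as higher (4.9% of all rows). Other genes of the list set this sum, since Epx, Siglecf and Ccr3 were far lower, and Epx and Prg2 had a mean below background. The summed mast cell list was at 10.23 to 10.28 in NCD and 10.55 to 10.95 in HFD pools, with 4 of 8 genes called higher and 0 lower. The part of eosinophils or mast cells in these values was not tested.

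Among the Ccr2 ligands only Ccl12 was called. Ccl12, also known as MCP-5, had values of 8.92, 8.86 and 8.38 in NCD pools, against 7.13, 6.62 and 6.80 in HFD pools. All HFD pools were at least 1.25 below the lowest NCD pool, and the spread within each diet was small (SD 0.30 and 0.26). The change was −1.87 ± 0.19 (limma, adjusted p = 0.00689, 95% interval 2.65-fold to 5.03-fold lower) and was called in each of the 17 alternatives, at −2.04 to −1.75. The HFD mean of 6.85 was close to the background level of 6.23, where array signals are compressed.

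Ccl7, or MCP-3, was at 10.20, 10.09 and 8.99 in NCD and at 8.24, 8.11 and 8.96 in HFD pools. NCD3 and HFD3 nearly touched, 0.034 apart, and the other pools were well separated. Its change of −1.32 ± 0.37 was not called (limma, adjusted p = 0.0854), with an interval from −2.21 to −0.43. It was called without NCD3 (−1.70, adjusted p = 0.0296).

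Ccl2, or MCP-1, was at 12.07, 11.57 and 10.38 in NCD pools, against 11.08, 10.94 and 11.52 in HFD pools. The NCD pools spanned both sides of the HFD pools. The change was −0.16 ± 0.42 (limma, adjusted p = 0.870), and its interval of −1.17 to 0.86 does not resolve a direction. It was 0.21 without NCD1 and −0.64 without NCD3. The receptor gene Ccr2 was at 13.24, 12.10 and 12.14 in NCD and 11.87, 12.02 and 11.35 in HFD pools (−0.74 ± 0.34, limma adjusted p = 0.247).

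Ccl8, or MCP-2, lies beside Ccl12 and shares the TATA box position shown above to within 1 base. Its values were 8.97, 10.51 and 9.78 in NCD and 8.44, 8.60 and 8.52 in HFD pools. The HFD pools were within 0.16 of one another and below all NCD pools, which ranged over 1.54. The change of −1.23 ± 0.36 was not called (limma, adjusted p = 0.0924; interval −2.09 to −0.37). It was called without NCD1 (−1.62, limma adjusted p = 0.00929) and was −0.85 without NCD2 (limma adjusted p = 0.162). In all, 4949 rows were called without NCD1 and 472 without NCD2, against 2451 in the main fit. Its receptor gene Ccr8 lay below background in every pool, at 4.07 to 5.08.

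The inflammatory ligands Ccl3 and Ccl4, known as MIP-1 alpha and MIP-1 beta, differed more among NCD pools than between diets. Ccl3 was at 15.50, 14.35 and 12.44 in NCD pools, against 13.52, 13.65 and 13.49 in HFD pools. Ccl4 was at 12.11, 9.40 and 7.43 in NCD pools, against 9.38, 9.90 and 9.61 in HFD pools. For both genes NCD1 was the highest and NCD3 the lowest of the 6 pools. From NCD3 to NCD1 the signal differed 8.36-fold for Ccl3 and 25.6-fold for Ccl4, and over the HFD pools 1.12-fold and 1.44-fold.

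Neither gene was called. The change of Ccl3 was −0.54 ± 0.70 (limma, adjusted p = 0.714; interval −2.22 to 1.13) and that of Ccl4 −0.02 ± 1.06 (limma, adjusted p = 0.994; interval −2.56 to 2.53). Single pools set the direction. Without NCD1 the changes were 0.16 for Ccl3 and 1.21 for Ccl4, and without NCD3 they were −1.37 and −1.13, none of them called. These NCD values leave both a fall and a rise of more than 2-fold within the interval.

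The order with NCD1 highest and NCD3 lowest, chosen for description after the values were seen, held in 3 of 10 ligands, Ccl2, Ccl3 and Ccl4, in 5.08% of all rows and in 4.93% of those above background. It held in 2 of 12 other CC ligands, in 4 of 14 receptor genes (Ccr7, Ccrl2, Ccr9 and Ccr1l1, the last pair with a mean below background), in 2 of 18 immediate early genes and in 7 of 27 inducers and regulators of these ligands, which were the cytokine genes Tnf, Il6, Il1a and Ifnb1, the NF-kappaB subunit gene Rel, the NF-kappaB feedback gene Tnfaip3 and the stress-induced factor gene Atf3. The level of Ifnb1 was near or below background. Tnf was at 11.85, 10.58 and 7.78 in NCD and 11.14, 10.72 and 10.99 in HFD pools (0.88 ± 0.94, limma adjusted p = 0.646). Il1b differed in that HFD3 was its highest pool, at 15.39, against 13.10 and 12.22 on HFD1 and HFD2 (1.09 ± 1.03, limma adjusted p = 0.596). The atypical chemokine receptor gene Ccrl2 was at 15.03, 14.29 and 11.82 in NCD and 13.45, 13.38 and 13.08 in HFD pools. NCD3 was also the lowest pool for the log2 summed signal of the macrophage identity genes, at 19.44 against 19.87 to 20.04 on the other pools. The summed smooth muscle and endothelial lists, given below, were highest on NCD3, at 17.50 and 18.71. Other summed lists were highest on NCD1, among them eosinophils (16.87) and B cells. The B cell list was at 15.49, 14.19 and 13.70 in NCD and 12.79 to 13.52 in HFD pools. The part of cell content in the order of the pools was not tested. The SD was larger in NCD than in HFD for 9 of 10 ligands (all but Ccl6), for 64.0% of all rows and for 76.1% of rows above background.

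**Figure D3:**
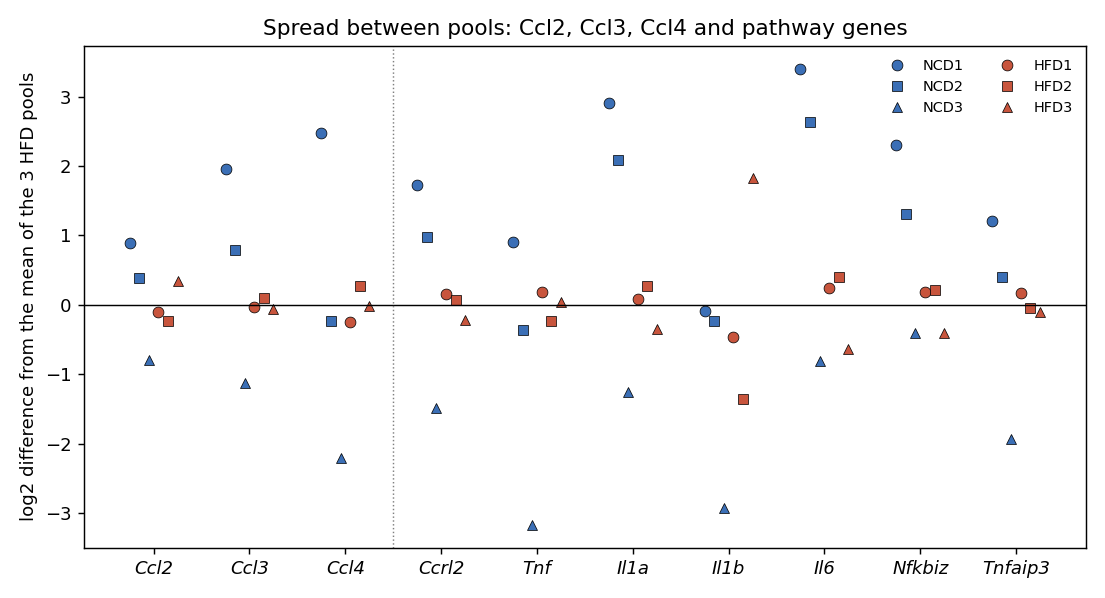
Log2 difference of each pool from the mean of the 3 HFD pools for Ccl2, Ccl3 and Ccl4 (left of the dotted line) and for 7 genes of the receptor and regulator lists, with NCD in blue and HFD in red. NCD1 reaches 2.48 in Ccl4 and 3.40 in Il6, while NCD3 lies below 0 for every gene plotted, at −2.20 in Ccl4 and −3.17 in Tnf.

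Ccl6 and Ccl9, the Ccr1 ligands that macrophages make without stimulation, varied little across pools. Ccl6 was at 15.72, 15.75 and 15.52 in NCD and 15.52, 15.64 and 15.80 in HFD pools, which overlapped fully. Its change was −0.01 ± 0.12 (limma, adjusted p = 0.962), and the interval of −0.29 to 0.26 was the narrowest of the 10. Ccl9 was at 16.53, 16.27 and 16.04 in NCD and 16.53, 16.63 and 16.77 in HFD pools, where NCD1 reached the lowest HFD pool. Its change of 0.37 ± 0.14 (1.29-fold) was not called (limma, adjusted p = 0.184; interval 0.02 to 0.71), and the adjusted p without NCD1 was 0.0502. Ccl6 and Ccl9 were the only ligands whose interval lay within 2-fold in both directions. The receptor gene Ccr1 was at 12.86, 12.42 and 11.86 in NCD and 11.56, 11.73 and 12.18 in HFD pools (−0.55 ± 0.28, limma adjusted p = 0.300).

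To compare changes between related ligands, the log2 difference between the members of 5 pairs was taken within each pool and tested with a two-sided exact permutation test, which with 3 pools a diet cannot go below p = 0.1. The change of Ccl12 minus that of Ccl2 was −1.71, and all HFD pools were below all NCD pools (exact permutation p = 0.1, adjusted 0.167). For Ccl24 minus Ccl11 it was −3.36, again without overlap (exact permutation p = 0.1, adjusted 0.167). For Ccl6 minus Ccl9 it was −0.38, with within-pool differences of −0.81, −0.51 and −0.51 in NCD and −1.02, −0.99 and −0.97 in HFD pools (exact permutation p = 0.1, adjusted 0.167). These 3 pairs thus reached the smallest p the design allows, which does not pass 0.05. It was −0.52 for Ccl3 minus Ccl4 (exact permutation p = 0.4, adjusted 0.5) and 0.09 for Ccl8 minus Ccl7 (exact permutation p = 0.9, adjusted 0.9), with overlapping pools in both.

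Among the other CC ligands, of 12 rows for 13 further ligands 0 were called higher and 1 lower (2.83% of all rows), with a median change of −0.20, and 3 had a mean below background. The row called lower carried the symbols of several near-identical genes, with Ccl21a among them, and cannot be assigned to one. It was at 6.87, 7.23 and 7.40 in NCD and 6.14, 6.54 and 6.04 in HFD pools (−0.93 ± 0.18, limma adjusted p = 0.0330). The call was lost without each pool in turn other than NCD1, in fits where 408 to 1888 rows were called in all, against 2451. A second row, kept for both Ccl21b and Ccl21c, was at 6.68, 6.96 and 7.33 in NCD and 6.16, 6.48 and 5.97 in HFD pools. It was not called (−0.79 ± 0.20, limma adjusted p = 0.0649). Ccl17, a Ccr4 ligand of alternatively activated cells, was at 8.38, 6.73 and 7.14 in NCD and 6.04, 5.71 and 6.39 in HFD pools (−1.37 ± 0.42, limma adjusted p = 0.104), with an HFD mean of 6.04, below background. Ccl22, the other Ccr4 ligand, had a change of −0.03 ± 0.18 (limma adjusted p = 0.951), and Ccl5, an attractant of T cells and monocytes, one of −0.41 ± 0.29 (limma adjusted p = 0.462). Of 14 measured receptor genes 1 was called higher, Ccr3 (4.9% of all rows), and 0 lower, and 8 had a mean below background.

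Of 27 measured inducers and regulators 0 were called higher and 5 lower (2.83% of all rows), at a median of −0.43. Only 2 of the 27 had a mean below background. In the fit of rows above background 6 were called lower, where 6.4% of those rows were. Klf4, a transcription factor of the interleukin-4 response, fell 5.39-fold (−2.43 ± 0.21, limma adjusted p = 0.00385), from 12.06, 12.40 and 12.79 in NCD to 10.19, 9.93 and 9.84 in HFD pools. The interleukin-13 receptor chain gene Il13ra1 fell by 0.96 ± 0.16 (limma adjusted p = 0.0215), and Irf1, an interferon-induced transcription factor, by 1.05 ± 0.22 (limma adjusted p = 0.0399). The AP-1 subunit genes Jun (−2.07 ± 0.27, limma adjusted p = 0.0113) and Fos (−1.08 ± 0.20, limma adjusted p = 0.0287) fell too. Both are also counted in the list of immediate early genes given below. Without single pools the calls of Il13ra1 (HFD2 or HFD3), Irf1 (NCD2, NCD3, HFD2 or HFD3), Jun (NCD2) and Fos (each pool but NCD1 and NCD3) were lost. In those fits 408 to 1888 rows were called in all, against 2451 in the main fit. The call of Klf4 was kept without each pool in turn. Stat6, which carries the interleukin-4 signal, was at 0.23 ± 0.11 (limma adjusted p = 0.261), and the receptor gene Il4ra at −1.09 ± 0.43 (limma adjusted p = 0.178). Il4ra was called without NCD1 (limma adjusted p = 0.0231), where 4949 rows were called in all, against 2451 in the main fit.

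The genes most like each ligand were taken by Pearson's r over the 6 pools among 2814 genes above background that varied by an SD of at least 0.5. These values describe 6 pools in 2 diets, and r includes the step between diets. For Ccl24 they were F13a1, the factor XIII subunit of tissue macrophages (r = 0.999, change −2.13), Fxyd2 (0.999, −1.33) and the lectin gene Cd209c (0.997, −1.80). For Ccl12 they were Rspo1 (r = 0.992, change −1.32), Fosb, an AP-1 subunit (0.991, −3.00), and Plk3 (0.990, −0.95). Ccl11 was nearest to the stromal genes Prrx1, a mesenchymal transcription factor (r = 0.988), and Lox, the collagen cross-linking enzyme (0.983), and to Lhfp (0.983), all with NCD3 as their highest pool. Stromal genes did not all share this pattern. In the fibroblast and progenitor list given below, 7 of 12 genes were called higher in HFD and 0 lower (4.9% and 2.83% of all rows). Ccl2 was nearest to Hcar2, Nlrp3 and Nfkbid (r = 0.964, 0.946 and 0.938), and Ccl3 to Gm6377, Plek and F10 (0.993, 0.990 and 0.985). The nearest to Ccl4 were Ikzf1, Bcl2a1c and Tlr2 (0.984, 0.984 and 0.978), to Ccl7 Mir3088, Igkv4-60 and Slc14a1 (0.980, 0.973 and 0.961), and to Ccl8 Snord8, Alox12 and Gstp1 (0.977, 0.967 and 0.961). For Ccl9 they were Dusp5, Slamf8 and Nlrp1a (0.994, 0.993 and 0.992), and for Ccl6, with the lowest values of the 10, an immunoglobulin kappa variable segment, Trem1 and Slfn4 (0.897, 0.892 and 0.890).

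Marker lists of macrophage states and of other cells are given as the log2 of the summed signal of each list. Such a sum mostly follows the brightest genes of its list. For the counts called, the shares over all rows were 4.9% higher and 2.83% lower. Among rows above background they were 11.8% and 6.4%. Genes of resident tissue macrophages, a population to which Ccl24 and Ccl8 are often assigned, were at 18.20 to 18.86 in NCD and 17.59 to 17.79 in HFD pools, with 10 of 18 called lower and 1 higher, while lipid-associated macrophage genes were at 19.89 to 20.18 and 20.59 to 20.77, with 10 of 15 higher. Of the resident genes Cd163 fell 7.82-fold and Lyve1 8.31-fold. Immediate early genes, which respond to tissue handling and to stimulation, were at 18.66 to 19.39 in NCD and 17.93 to 18.20 in HFD pools, with 12 of 18 lower. Smooth muscle and pericyte genes were at 15.54 to 17.50 and 12.20 to 13.63 (9 of 12 lower), highest on NCD3 like Ccl11, and mesothelial genes were at 11.63 to 13.08 and 9.24 to 9.55 (10 of 10 lower, 6 of them with a mean below background, Msln among them). Fibroblast and progenitor genes were at 13.82 to 14.34 and 13.48 to 14.34, with 7 of 12 called higher and 0 lower. Their sum was 14.34 on both NCD3 and HFD1. Endothelial genes were at 16.48 to 18.71 and 15.66 to 17.02, also highest on NCD3, with 0 of 14 called. Monocyte genes were at 17.18 to 17.56 in NCD and 15.49 to 16.41 in HFD pools (1 of 11 lower), and neutrophil genes were highest on HFD3, at 14.68 against 11.16 to 12.75 on the other 5 pools. The part of these lists in the values of Ccl24, Ccl12, Ccl11 and the other ligands was not tested.

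**Figure D4:**
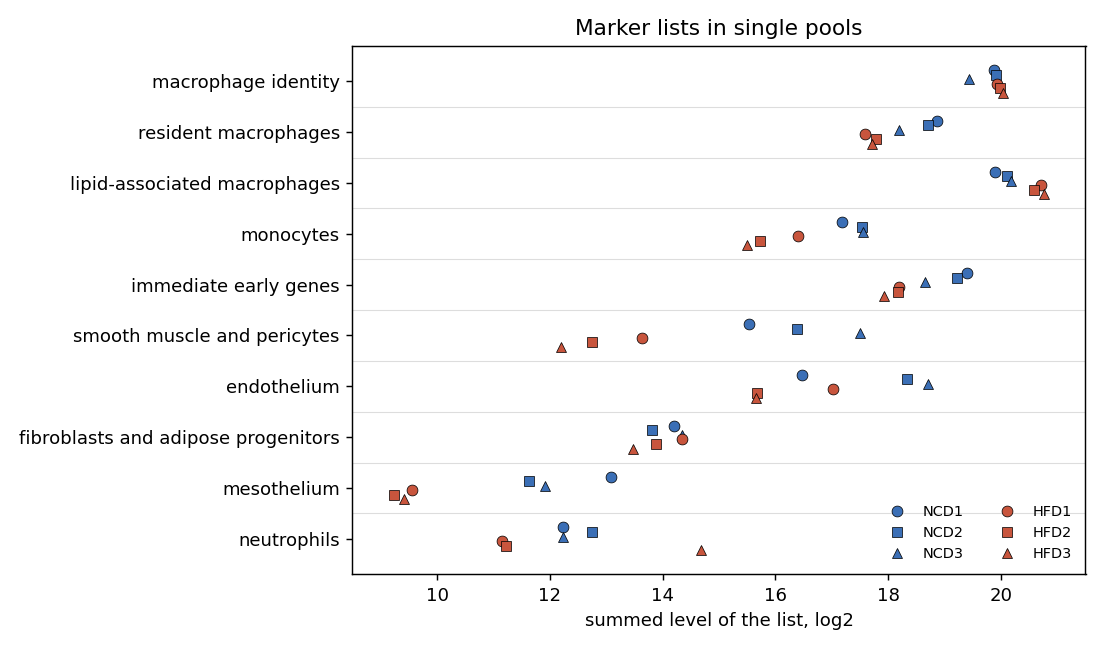
Log2 of the summed signal of 10 marker lists in each pool, NCD in blue and HFD in red, 1 list a line. The diets overlap for endothelium, fibroblasts and neutrophils, where HFD3 stands apart, and not for the other 7 lists. For macrophage identity they nearly touch, with the highest NCD pool at 19.91 and the lowest HFD pool at 19.93.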

How the data were processed

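Values are the log2 signals of transcript clusters that the authors deposited, with a column for each pool. RMA, Transcriptome Analysis Console 3.1.0.5 and Expression Console 1.4.1.46 are listed in the submitters' processing notes, and their settings and the build are not given in the sources used here. From each pool 100 ng of RNA was labelled, per the labels' protocols. The 6732 control probe sets were left out, and of 65956 clusters 30604 carried 1 symbol, 2146 several and 33206 none. Symbols came from the platform annotation, with 827 updated by Entrez identifier. For each symbol the row with the highest mean was kept, rows with several symbols included, giving 31722 rows.

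HFD pools were set against NCD pools in limma 3.58.1 (R 4.3.3; lmFit and trended eBayes, prior df 2.62), two-sided, with Benjamini-Hochberg adjustment over all rows. Promoters were aligned with Biopython 1.88. Same-numbered pools were checked for pairing: their deviations correlated at −0.46 to −0.12, so the numbers were not used as pairs. The titles call the pools biological replicates. Background is the mean over arrays of the 95th percentile of 23 antigenomic probe sets. Named genes were the 10 ligands, the called genes of 3 pathway lists and a fixed set of receptors and regulators. Genes named for a pool pattern (Il6, Il1a, Ifnb1, Rel, Tnfaip3, Atf3, Ccrl2, Ccr7, Ccr9, Ccr1l1) and markers were chosen after their values were seen. The members and lists were chosen with earlier results of these data known. Alternatives changed the rows tested, the filter, the variance model, the normalization, the replicate block and the pools.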

Additional observations from a re-analysis of the deposited data

How the results depend on the processing

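The falls of Ccl24 and Ccl12 were called in all 17 alternatives. The number of ligands called lower was 2 throughout except 3 without NCD1, 3 without NCD3 and 4 with array weights. Array weights added Ccl7 (−1.49) and Ccl8 (−1.55). Of all rows, 2.83% were called lower in the main fit, 7.68% without NCD1, 2.86% without NCD3 and 6.45% with array weights. With the replicate number as a block, 112 rows in all were called against 2451; Ccl24 (adjusted p = 0.0412) and Ccl12 (0.0479) were among them, other ligands called lower numbered 0, receptors called higher 0, and inducers and regulators called lower 1, which was Jun (adjusted p = 0.0412), while Klf4 was not called (0.0550). The pool numbers were not shown to pair the samples. The number of further CC ligands called lower was 0 with rows of 1 symbol only, 3 with the mean of all rows of a gene, 2 with genes above background, 2 with genes above the median level, 2 with array weights, and 0 to 2 without 1 pool. The number called higher was 1 with genes above background, 1 with median centring and 1 with quantile normalization. The mean of all rows counts each symbol, while in the other settings symbols that share a row count once. The 3 called lower there is therefore not directly comparable with the other counts. Without 1 pool, receptors called higher ranged from 0 to 1 and lower from 0 to 1, and inducers and regulators called lower from 2 to 9, the highest without NCD3.

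Directions near 0 turned: Ccl4 was 0.15 with array weights, 0.02 with median centring and 0.01 with quantile normalization, Ccl6 was 0.03 and 0.07 with the last pair, and Ccl22 was 0.03, 0.01 and 0.04 with the same 3. Without 1 pool the changes ran from −0.64 to 0.21 for Ccl2, −1.37 to 0.16 for Ccl3, −1.13 to 1.21 for Ccl4, −0.09 to 0.05 for Ccl6, −0.15 to 0.13 for Ccl22 and −0.26 to 1.77 for Tnf. The difference between Ccl8 and Ccl7 ran from −0.52 to 0.49. Median centring moved the median change of all genes to 0.05, and the lower genes were 36.6% of those called, 27.9% with median centring, 45.3% with array weights and 49.2% without NCD1. The causes of these shifts were not tested. Fits without 1 pool also have fewer residual degrees of freedom. The rows called in them ranged from 408 without HFD2 to 4949 without NCD1, against 2451 in the main fit, so calls of single genes shift with these totals.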
